A study of Drosophila melanogaster with 12 samples.

Results

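The amylase and maltase genes of Drosophila melanogaster were followed over the first 12 hours after adult flies got yeast back in their food. The 10 genes named here were picked with earlier results of these data known, and the maltase gene Mal-A5 is not among them. Probe sets were chosen by the platform's gene symbol alone, among these 10 named genes (Amy-d, Amy-p, Amyrel, Mal-A1, Mal-A2, Mal-A3, Mal-A4, Mal-A6, Mal-A7 and Mal-A8). This gave 9 probe sets of the 14010 in the table, 1 for each of 9 genes. No probe set named Amy-p, and none (0) named Amy-d and Amy-p together. All 9 passed the filter on dim probe sets, Mal-A8 through hours 6 to 12 alone and Amyrel through 3 arrays.

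Alpha-amylases cut starch and glycogen into maltose and short glucose chains, and maltases (alpha-glucosidases) split these and sucrose into single sugars that the gut can take up. In flies both kinds of enzyme are made by the midgut, and amylase is known for being held low when the diet is rich in glucose. Amy-d and Amy-p are near-identical copies of the main amylase gene, separated in the gene table by a single protein-coding gene, Spn53F. The Amy-d probe set may therefore read transcripts of both copies, and the signal is uncertain to that extent. Amyrel is a diverged amylase relative. The Mal-A genes form 1 cluster on chromosome arm 2R, in the order Mal-A1 to Mal-A8 with no other protein-coding gene between neighbours. Older names of Mal-A1, Mal-A2 and Mal-A3 (LvpH, LvpD and LvpL) come from their description as larval visceral proteins.

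The flies ate standard food as larvae until early in instar 3 and then lived without yeast until 4 days after emergence. Standard food with yeast was given back at that point, and whole flies were taken at each of the following 12 hours, with 1 Affymetrix array per hour. All flies shared this treatment, and the labels name no strain, genotype, sex or number of flies. Flies kept on food without yeast, and flies taken ahead of its return, were not analysed here, and hour cannot be told apart from age, time of day or the order of handling. Nothing says that the arrays came from separate cultures, and p-values measure only the spread of single arrays around a line over hours. In RNA of whole flies, a change in the number of gut cells and a change in RNA per cell cannot be told apart.

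Median intensity, the brightness of the array in arbitrary units, lay between 113.6 and 120.2 over the 12 arrays. Values under 57.2, the 20th percentile of the table, were set to that floor before log2 was taken, and 18.7% to 20.9% of fly probe sets per array were at or under it. Male transcripts were present on 5 arrays, those of hours 2, 3, 5, 9 and 10. On these the 13 probe sets of the accessory gland list summed to between 1016.2 and 1511.1, and on the other 7 arrays to between 426.5 and 512.8. Of the 13, 5 were at or under the floor on all arrays. The summed level of the 8 testis probe sets was 2319.4 to 3238.3 on the 5 arrays and 1523.3 to 1711.7 on the 7. The arrays thus differ in their share of male RNA, and results are given with and without the 5. For actin, the log2 signal at the 3' end minus that at the 5' end, a rough measure of RNA quality, went from 1.13 at hour 1 to 0.69 at hour 12. The question addressed is which of these digestive genes followed the hours after yeast returned.

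Transcripts of the amylase Amy-d and of the maltases Mal-A1 and Mal-A6 rose over the hours, and those of Amyrel, Mal-A2, Mal-A3, Mal-A4 and Mal-A7 did not pass the test. Mal-A8 passed it upward with readings that stayed near the floor. The fitted rise from hour 1 to hour 12 was 2.67-fold for Amy-d and 2.49-fold for Mal-A1. The reading of hour 12 itself was 2.23-fold that of hour 1 for Amy-d and 1.90-fold for Mal-A1. The fitted rise of Mal-A6 depends on the floor, with a log2 change of 1.55 at the floor used and 0.95 at one set to the 40th percentile. Of the 9 probe sets 4 passed upward, Mal-A8 included, 0 passed downward and 5 did not pass. Of all 11586 tested probe sets 8.44% rose and 4.97% fell. The count of 0 downward holds for the named genes alone, which leave out Mal-A5 and the Mal-B genes. Of those left out, Mal-A5 changed by -0.52 and Mal-B2 by -0.54, and both passed downward (limma adjusted p = 0.018 and 0.00469). Mal-B1, also left out, had a change of 0.01 and did not pass. The count of members that passed upward was 2 without the 5 arrays that held male transcripts and 0 with the actin measure as covariate. Calls over all tested probe sets, in either direction, also went from 1554 to 848 and 228 in these fits. The median fitted log2 change of the 9 was 0.08 and that of all tested probe sets 0.01.

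Amy-d read 293.4 at hour 1, 197.6 at hour 2, 269.9 at hour 3 and 348.2 at hour 4. It then read 326.4 at hour 5, 555.7 at hour 6, 397.8 at hour 7, 445.6 at hour 8 and 390.5 at hour 9. The last readings were 571.9 at hour 10, 621.0 at hour 11 and 654.5 at hour 12. The lowest array was that of hour 2 and the highest that of hour 12, 3.31-fold above it, and all 4 arrays of hours 9 to 12 lay above all 4 of hours 1 to 4. The fitted log2 change was 1.42 ± 0.22 (SE, n = 12 arrays; 95% confidence interval 0.95 to 1.88; limma adjusted p = 0.00106), the 16th largest of all tested probe sets. All 12 readings were above the brightest control probe set without a fly target on the same array.

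Mal-A1 was dimmer for some hours before it climbed. It read 390.9 at hour 1 and 257.3, 240.9, 271.7 and 278.2 at hours 2 to 5. It then read 441.8, 414.8, 394.5, 423.1 and 485.8 at hours 6 to 10, and 666.6 and 741.6 at hours 11 and 12. The level was thus lowest at hour 3, on a plateau from hour 6 to hour 9 close to that of hour 1, and highest on the last array. The fitted log2 change was 1.32 ± 0.24 (SE, n = 12 arrays; 95% confidence interval 0.80 to 1.84; limma adjusted p = 0.00316), the 20th largest. Hours 9 to 12 did not overlap with hours 1 to 4.

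Mal-A6 was dimmer and followed the same course. It read 91.4 at hour 1, then 56.7, 58.6, 68.7 and 63.4 at hours 2 to 5. From hour 6 to hour 10 it read 105.6, 100.6, 96.8, 107.3 and 118.1, and at hours 11 and 12 it read 191.9 and 202.6. The array of hour 2 was under the floor, the last pair of arrays stood clear of all others, and hours 9 to 12 did not overlap with hours 1 to 4. The fitted log2 change was 1.55 ± 0.26 (SE, n = 12 arrays; 95% confidence interval 0.99 to 2.12; limma adjusted p = 0.0022). Only 4 of the 12 readings were above the brightest control probe set without a fly target on the same array. Raising the floor to the 40th percentile gave a change of 0.95 ± 0.21 (limma adjusted p = 0.00849).

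Mal-A8 stayed near the floor. It read 55.3, 50.5, 46.5, 52.6 and 53.8 at hours 1 to 5, all under the floor. It read 65.0, 59.1, 60.2, 68.4, 62.6, 75.6 and 65.8 at hours 6 to 12, all above the floor. None (0) of the 12 readings exceeded the brightest control without a fly target. The fitted log2 change of 0.31 ± 0.08 (SE, n = 12 arrays; limma adjusted p = 0.0269) became 0.51 ± 0.11 with the floor at the 10th percentile (limma adjusted p = 0.00764). Leaving out hour 2, hour 3 or hour 11 ended the call (limma adjusted p = 0.0548, 0.051 and 0.0916), and a fit on log2 of hour did so too for Mal-A8 (0.0724) and for Mal-A1 (0.0537).

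**Figure D1:**
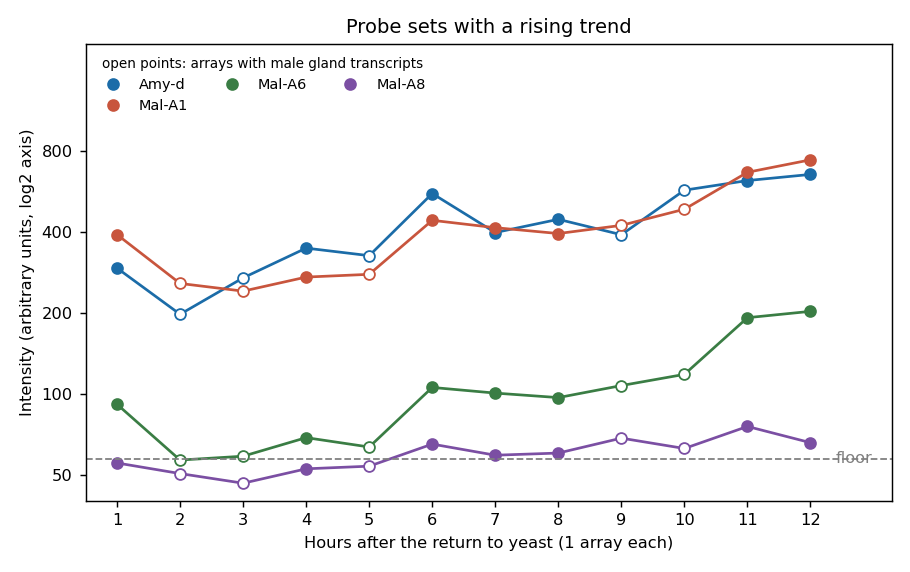
Intensity (arbitrary units, log2 axis) of the 4 probe sets that passed the test upward, against hour, with 1 array per hour and no error bars because no array was repeated. Open points are the 5 arrays with male gland transcripts and the dashed line is the floor of 57.2. Amy-d, Mal-A1 and Mal-A6 were lower at hour 2 than at hour 1 and highest at hour 12.

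Amy-d, Mal-A1 and Mal-A6 made their largest single step between hours 5 and 6. Amy-d went up 1.70-fold, Mal-A6 1.67-fold and Mal-A1 1.59-fold there, steps reached by 0.069%, 0.0863% and 0.155% of tested probe sets between the same arrays. From hour 1 to hour 2 the same genes had log2 differences of -0.57 for Amy-d, -0.60 for Mal-A1 and -0.67 for Mal-A6, with a median of -0.02 over all tested probe sets. From hour 10 to hour 11 Mal-A6 went up 1.62-fold and Mal-A1 1.37-fold, and Amy-d 1.09-fold. Single steps rest on 1 array on each side and have no test. Hour 1 has no male transcripts and hour 2 has them, and hours 5 and 10 have them while hours 6 and 11 do not, so these steps run along with the presence of male RNA.

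Without the 5 arrays that held male transcripts, the change was 1.13 ± 0.21 (SE, n = 7 arrays; limma adjusted p = 0.0245) for Amy-d and 1.39 ± 0.33 for Mal-A6 (limma adjusted p = 0.0493). The threshold was missed there by Mal-A1, at 1.14 ± 0.31 (limma adjusted p = 0.0705), and by Mal-A8, at 0.31 ± 0.11 (limma adjusted p = 0.14). Among the 5 arrays with male transcripts alone the changes were 1.68 ± 0.27 for Amy-d, 1.53 ± 0.16 for Mal-A6, 1.37 ± 0.17 for Mal-A1 and 0.29 ± 0.12 for Mal-A8. On those 5 arrays no probe set passed (0 of 11586 by limma; limma adjusted p = 0.111 for Mal-A1 and for Mal-A6, 0.126 for Amy-d). With the mean of 6 accessory gland probe sets as covariate on all 12 arrays, all 4 genes kept their calls, at 1.36 for Amy-d, 1.25 for Mal-A1, 1.47 for Mal-A6 and 0.30 for Mal-A8. With the actin measure in the model the changes were 1.30 ± 0.38, 1.34 ± 0.42, 1.72 ± 0.46 and 0.31 ± 0.15 in the same order, and none of the 4 passed (limma adjusted p = 0.11, 0.145, 0.081 and 0.37). The actin measure itself moved with hour, and its part in these changes was not tested.

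Mal-A1 and Mal-A6 moved nearly in step although 4 other maltase genes lie between them. Over the 12 arrays their log2 values had Pearson r = 0.99 and Spearman rho = 0.98. The Pearson value was 0.99 without hours 11 and 12 (10 arrays), 0.98 after each gene's linear trend was removed and 0.99 on the 7 arrays without male transcripts. Amy-d followed them less closely, at r = 0.87 with Mal-A1 and 0.88 with Mal-A6, and 0.54 and 0.53 about the trend. This pair was singled out after its values were seen, among 36 pairs, and the values are a description of arrays that share a time order. Whether the probes of the pair share sequence was not tested.

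**Figure D2:**
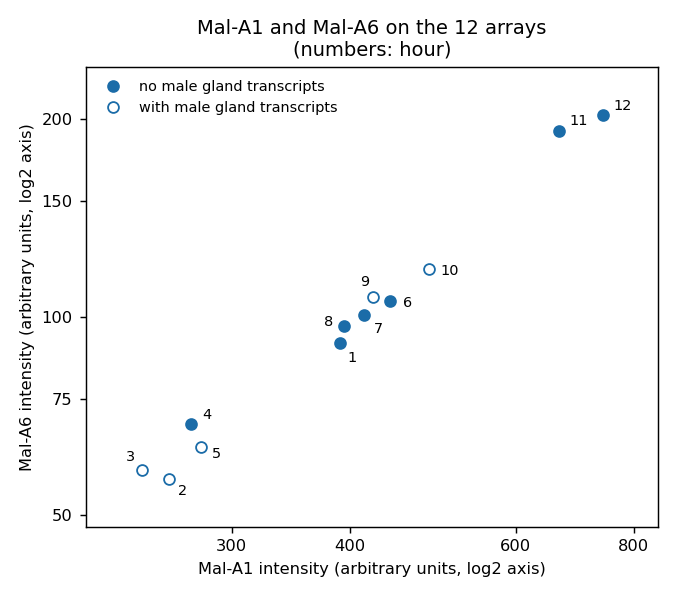
Intensity of Mal-A6 against that of Mal-A1 (arbitrary units, log2 axes), each point 1 array, numbered by hour and open where male gland transcripts were present. Hours 2 to 5 lie at the lower left, hours 11 and 12 at the upper right, and hour 1 lies with hours 6 to 9.

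The genes between them were tested in the same way. Mal-A2 read 116.5 at its highest, at hour 12, and was dimmest at hours 1 and 5, with a median of 109.5, and its fitted log2 change was 0.08 (95% confidence interval -0.10 to 0.26; limma adjusted p = 0.638). Mal-A3 read between 144.0 at hour 12 and 188.6 at hour 9, with a median of 169.0 and a change of 0.01 (-0.21 to 0.23; limma adjusted p = 0.98). Mal-A4 read between 443.0 at hour 3 and 640.6 at hour 9, with a median of 529.4 and a change of 0.05 (-0.25 to 0.35; limma adjusted p = 0.888). These intervals leave out a doubling of the signal over the hours. Mal-A3 and Mal-A4 were above the brightest control probe set without a fly target on all 12 arrays, and Mal-A2 on 8. At a brightness so close to such controls, a change in the Mal-A2 transcript may not show in the signal. Levels of different probe sets cannot be ranked as amounts of transcript.

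Next along the cluster, Mal-A5, a neighbour that was not among the 10 named genes, changed the other way. It read 314.2, 274.1, 254.6 and 214.9 at hours 1 to 4, between 203.2 and 220.7 at hours 5 to 8, and between 187.4 and 214.0 at hours 9 to 12. It fell by -0.52 ± 0.13 on the log2 scale (SE, n = 12 arrays; limma adjusted p = 0.018) and missed the threshold without hour 1, hour 2 or the 5 arrays that carry male RNA (limma adjusted p = 0.0943, 0.0585 and 0.171). With the actin measure in the model it was -0.47 (limma adjusted p = 0.371). Mal-A7, between Mal-A6 and Mal-A8, read from 99.2 at hour 5 to 139.4 at hour 1, with a median of 122.8 and a fitted change of -0.07 (95% confidence interval -0.32 to 0.18; limma adjusted p = 0.797).

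Amyrel gave almost no signal. It read between 50.4 at hour 1 and 72.6 at hour 9, was above the floor on 3 of 12 arrays (hours 2, 4 and 9) and never above the brightest control without a fly target. The fitted log2 change was 0.04 (95% confidence interval -0.16 to 0.25; limma adjusted p = 0.851), and at this brightness a change in Amyrel was not detectable below the floor.

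**Figure D3:**
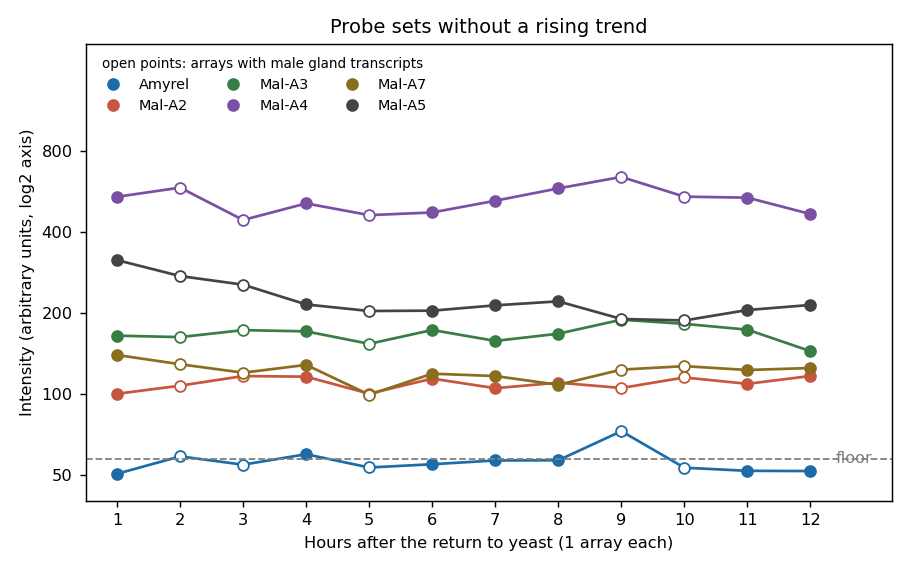
Intensity (arbitrary units, log2 axis) by hour of the 5 amylase and maltase probe sets that did not pass and of the neighbouring Mal-A5, with 1 array per hour. Open points are arrays with male gland transcripts and the dashed line is the floor. Mal-A4 stayed between 443.0 and 640.6, Amyrel stayed near the floor, and Mal-A5 was highest at hour 1.

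**Figure D4:**
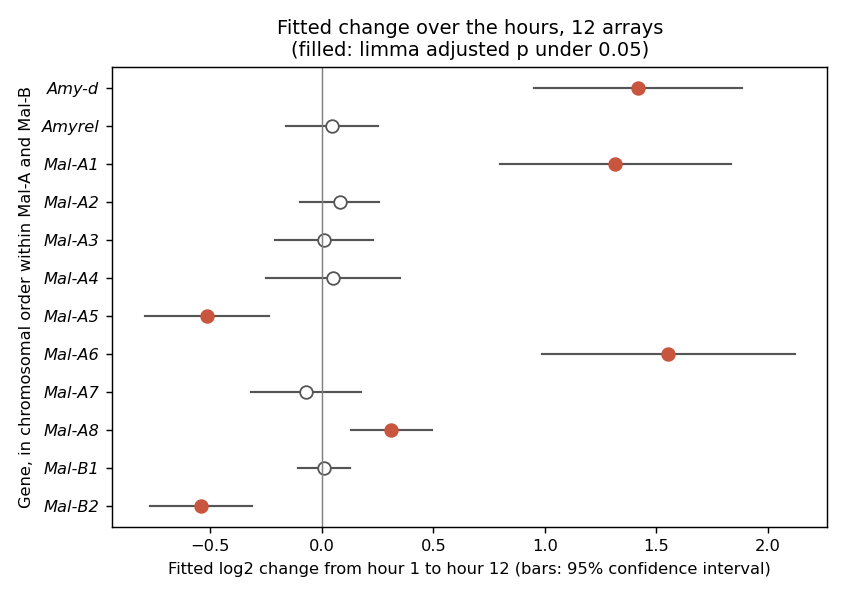
Fitted log2 change from hour 1 to hour 12 with its 95% confidence interval over 12 arrays, the Mal-A and Mal-B genes in chromosomal order. Amy-d, Mal-A1, Mal-A6 and Mal-A8 lie above 0 and Mal-A5 and Mal-B2 below it with adjusted p under 0.05 (filled points).

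The course of Amy-d was set against that of every other probe set by fitting the hour trend of the log2 difference from Amy-d. Mal-A6 differed from Amy-d by 0.14 ± 0.29 over the hours (95% confidence interval -0.43 to 0.70; limma adjusted p = 0.64) and Mal-A1 by -0.10 ± 0.29 (-0.67 to 0.47; limma adjusted p = 0.726). The other 6 members had fitted differences below 0, from -1.11 ± 0.29 for Mal-A8 to -1.49 ± 0.29 for Mal-A7, with limma adjusted p between 9.53e-07 and 0.00015. Amy-d had the 16th largest rise, so a lower value was the rule for any probe set. Amyrel was set to the floor on 9 arrays and Mal-A8 on 5. On those arrays the difference is the floor minus Amy-d and does not measure these genes. The members' 6 of 8 stand against 98.9% of all 11585 probe sets that were lower than Amy-d in this fit, 0.0518% that were higher and 99% in either direction. All of these differences share the Amy-d readings, and the pooled variance gave the same SE for each. With each probe set's own variance the adjusted p of the 6 lay between 0.000764 for Mal-A7 and 0.00314 for Mal-A4.

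The timing of the rise could not be placed by the other fits. Taking 4 hours at a time, Amy-d averaged 277.3 ± 62.5, 431.4 ± 96.3 and 559.5 ± 117.6 (SD, n = 4 arrays) in hours 1 to 4, 5 to 8 and 9 to 12. Mal-A1 averaged 290.2 ± 68.3, 382.3 ± 72.1 and 579.3 ± 149.6, and Mal-A6 averaged 68.8 ± 15.9, 91.6 ± 19.2 and 155.0 ± 49.2. Arrays of a window are neighbours in time and not repeats of a condition. Hours 9 to 12 lay wholly above hours 1 to 4 for 4 of the 9 members, against 7.89% of all tested probe sets. These are the members that passed the trend test on the same readings, so the count is no separate support. Mal-A8 is among them, although its hours 1 to 4 were all under the floor and it passed the filter only through later hours. No member (0) lay wholly below, against 4.28%. Outside the named genes, hours 9 to 12 lay wholly below hours 1 to 4 for Mal-A5 and Mal-B2, and wholly above for tobi.

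Between the early and middle windows the log2 difference was 0.64 ± 0.20 for Amy-d (limma adjusted p = 0.119), 0.40 ± 0.20 for Mal-A1 (0.34) and 0.41 ± 0.23 for Mal-A6 (0.401). None of the 9 members passed there (0, with 2 at an unadjusted limma p under 0.05), against 1.89% of all probe sets (1.81% higher and 0.0777% lower). Of all 11586 probe sets, 1934 had an unadjusted limma p under 0.05. The 2 members were Amy-d, which went up, and Mal-A7, which went down. Between the middle and late windows the log2 difference was 0.37 ± 0.20 for Amy-d (limma adjusted p = 0.794), 0.58 ± 0.20 for Mal-A1 (0.611) and 0.73 ± 0.23 for Mal-A6 (0.611). No member and no other probe set passed (0%, with 771 probe sets and 4 members at an unadjusted limma p under 0.05). A bend in the course was measured as the fitted level at mid-course minus the mean of the fitted ends. It was -0.58 ± 0.19 for Mal-A6 and -0.50 ± 0.18 for Mal-A1, the sense of a course that dips and then climbs, and 0.03 ± 0.20 for Amy-d (limma adjusted p = 0.533, 0.632 and 0.999). None of the 9 passed (0, with 3 at an unadjusted limma p under 0.05), against 0.0345% of all probe sets (0.0173% in each direction). Here 641 of all 11586 probe sets had an unadjusted limma p under 0.05.

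Genes with the most similar course were sought among 9255 probe sets with 1 symbol and a reading above the floor on all 12 arrays, by Pearson r of log2 values. The nearest to Amy-d were CG15818 (r = 0.95), CG9331 (0.94) and smp-30, a gene of the fat body (0.92). After the linear trends were removed these values were 0.84, 0.74 and 0.66. CG15818 went from 117.8 at hour 1 to 200.8 at hour 12, CG9331 went from 380.5 at hour 1 to 629.1 at hour 12, and smp-30 from 104.2 to 261.9. Nearest to Mal-A1 were CG9119 (r = 0.99, from 276.2 at hour 1 to 343.6 at hour 12), CG9135 (0.94) and CG5096 (0.93). CG9119 kept r = 0.96 after the trends were removed, with a fitted log2 change of 0.52 ± 0.11 against 1.32 for Mal-A1. With the trends removed, CG9135 had r = 0.86 and CG5096 r = 0.85. Nearest to Mal-A4 were the hemocyte gene Hml (r = 0.93), CG40486 (0.92) and the channel gene Eglp2 (0.91). Nearest to Mal-A2 were CG15332 (0.84), CG4098 (0.78) and RabX6 (0.76), and to Mal-A3 PKD (0.87), mid (0.85) and CG17906 (0.85). Nearest to Mal-A7 were CG4363 (0.88), qkr58E-1 (0.87) and CG5079 (0.87). Mal-A6, Mal-A8 and Amyrel were left out of this search because they were not above the floor on all arrays. All r are over 12 arrays, a description of arrays in time order.

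Other genes of sugar cleavage and sugar handling were counted in the same fit. Of the other maltases and the trehalase gene, 5 genes in all, 0 rose, 2 fell and 3 did not pass. The maltase Mal-B2 fell by -0.54 ± 0.11 (limma adjusted p = 0.00469), from 174.4 at hour 1 to 110.0 at hour 12, and the other was Mal-A5. With the actin measure in the model Mal-B2 had a change of -0.73 (limma adjusted p = 0.055). Mal-B1, next to Mal-B2 on the left arm, was above the floor on 3 of 12 arrays and had a change of 0.01. The glucosidase tobi, known as a target of brain insulin signals, read 122.4 at hour 1 and 154.0 at hour 12 (0.29 ± 0.11, limma adjusted p = 0.111), and Treh had a change of 0.10 ± 0.17 (limma adjusted p = 0.798).

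Of 8 tested genes of trehalose and glycogen 2 rose and 6 did not pass. Glycogen phosphorylase (Glyp), which releases glucose units from glycogen, rose by 0.81 ± 0.13 (limma adjusted p = 0.0012), and CG5171 by 0.30 ± 0.09 (0.0409). The glycogen branching enzyme gene AGBE had a change of 0.17 ± 0.08 (limma adjusted p = 0.19). Of 6 sugar transporters sut3 rose by 0.38 ± 0.11 (limma adjusted p = 0.0402) and the trehalose transporter Tret1-1 fell by -0.55 ± 0.13 (0.0159). A dimmer probe set of Tret1-1 had a change of -0.26 (limma adjusted p = 0.27), and the transporter gene nebu one of 0.64 ± 0.29 (limma adjusted p = 0.177). Of 9 glycolysis genes 0 rose and 3 fell, the hexokinase Hex-A by -0.88 ± 0.15, the aldolase Ald1 by -0.70 ± 0.09 and Gapdh1 by -0.32 ± 0.09 (limma adjusted p = 0.00224, 0.000364 and 0.0373). None of the 9 genes of sugar sensing and glucose repression passed (0 of 9 by limma, with 1 at an unadjusted p under 0.05). Among them the transcription factor gene cbt had a change of -0.47 ± 0.16 (limma adjusted p = 0.0664). The sugar sensor Mondo had a change of 0.21 ± 0.15 and its partner bigmax of -0.30 ± 0.22 (limma adjusted p = 0.463 and 0.465).

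Of the other digestive enzymes, Jonah proteases had 5 of 13 tested genes that rose and 1 that fell, with Jon25Bii at 3.01 ± 0.36, Jon25Bi at 2.25 ± 0.21 and Jon25Biii at 1.31 ± 0.17 (limma adjusted p = 0.000247, 8.2e-05 and 0.000317). Jon25Bii read 232.3 at hour 1 and 2587.1 at hour 12. Jon25Bi was under the floor on 3 of the 12 arrays, those of hours 1 to 3, so its fitted change depends on the floor. Of 10 gut lipases 3 rose and 7 did not pass. The risers were CG6295 at 1.47 ± 0.23, mag at 1.00 ± 0.17 and CG6283 at 0.41 ± 0.12 (limma adjusted p = 0.00115, 0.00231 and 0.0311). Of 10 trypsins 1 rose, zetaTry at 0.24 ± 0.06 (limma adjusted p = 0.0181), and 3 fell, among them epsilonTry at -0.81 ± 0.12 and lambdaTry at -0.53 ± 0.10 (0.000934 and 0.0046). None of 7 lysozyme genes passed (0 of 7 by limma, with 0 at an unadjusted p under 0.05), and LysC had the smallest p of them, at 0.17 ± 0.08 (limma adjusted p = 0.225). The median fitted log2 change was 0.17 for Jonah proteases, 0.00 for lipases, -0.20 for trypsins and 0.06 for lysozymes, beside 0.08 for the amylases and maltases. No test compares these lists.

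Markers of gut cell types were set beside these values. Of 7 tested enterocyte markers none passed (0 of 7 by limma, with 0 at an unadjusted p under 0.05), and the 10 probe sets on the array summed to between 872.9 at hour 2 and 1071.1 at hour 7, with 2 of them at or under the floor on all arrays. The enterocyte marker mex1 read between 45.9 and 65.0, near the floor. Of 6 enteroendocrine markers 3 fell (AstC, pros and Dh31, all of which the nervous system also expresses) and 3 did not pass. All 6 had an unadjusted limma p under 0.05, as did 2885 of all 11586 tested probe sets. Of those that did not pass, CCHa2 went up, at 0.38 ± 0.12 (limma adjusted p = 0.0542), and NPF and Mip went down, at -0.26 and -0.21. The sum of the 7 enteroendocrine probe sets went from 943.2 at hour 1 to 714.7 at hour 12. Of 7 fat body markers 3 rose (smp-30, Apoltp and apolpp, at 1.42, 0.76 and 1.06). The other 4 did not pass (Fbp2 -0.10, Fbp1 0.08, LpR2 -0.07 and Lsp2 0.02), and the median of the list was 0.08. The sum of 9 fat body probe sets was lowest at hour 2, at 2010.8, and highest at hour 12, at 4655.7. It gives most weight to bright probe sets, and the brighter one of apolpp read 856.7 at hour 1 and 1471.0 at hour 12. The part of cell makeup in the rise of the amylase and maltase genes was not tested.

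**Figure D5:**
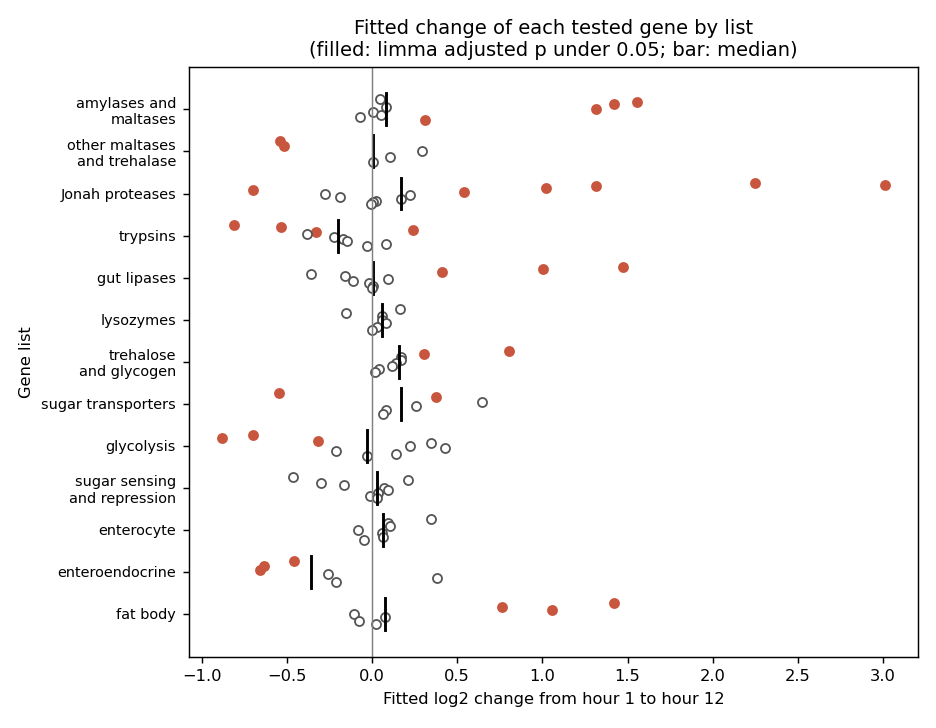
Fitted log2 change from hour 1 to hour 12 of each tested gene (points) and the median (bar) for the 9 amylases and maltases and the other gene lists, over 12 arrays. Filled points have a limma adjusted p under 0.05. The median of the amylases and maltases is 0.08, with Amy-d, Mal-A1 and Mal-A6 between 1.32 and 1.55, and the Jonah proteases reach 3.01 and the gut lipases 1.47 around medians of 0.17 and 0.00.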

How the data were processed

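RNA of whole flies was hybridized to Affymetrix DrosGenome1 arrays, 1 per hour, 12 in all. Per the labels' protocols, the authors used Trizol for extraction and dChip, with an invariant set of probes, for normalization. What they deposited is 1 linear intensity per probe set and array. The version, background model and masking used in dChip are not stated in these sources.

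No further normalization was applied. Values under the 20th percentile (57.2) were raised to it, and log2 was taken. Of 13966 fly probe sets, the 11586 above this floor on at least 3 arrays were tested. A single gene symbol was annotated for 12443 of the 13966 fly probe sets, more than 1 gene for 327 and no name here for 1196. List genes with several tested probe sets are given by the brightest. The Release 6 plus ISO1 MT gene table served for names and gene order, with no coordinates. Precision is limited by the number of arrays, which carry no read depth.

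Tests used limma 3.58.1 in R 4.3.3, with Benjamini-Hochberg adjustment over all tested probe sets and a threshold of 0.05. They were the slope on hour (as the log2 change over 11 hours), a quadratic term, windows of 4 hours, and the slope of the difference from Amy-d. These 5 fits were tested on simulated data with independent noise for each array, without a male RNA pattern or noise shared between neighbouring hours. Fits with covariates, with fewer arrays or with each probe set's own variance were not simulated. Arrays with male transcripts are those where Acp95EF was at least 1 log2 above the floor. The rule for named genes took all members, the 3 nearest patterns of each member above the floor on all 12 arrays and the 3 genes with the smallest p of each list, and the text leaves out some of the lysozyme and marker genes. Alternatives were normalization by quantiles or by the median, floors at other percentiles, no filter or a strict one, a robust variance model, leaving out each hour or the male arrays, both covariates, log2 of hour and gene means. A fit of the male arrays alone and each probe set's own variance were added after seeing the data. The members, lists and tests were chosen with earlier results of these data known.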

Additional observations from a re-analysis of the deposited data

How the results depend on the processing

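The count of amylase and maltase probe sets that passed upward, Mal-A8 included, was 4 and stayed at 4 under quantile and median normalization, no filter, the floor at the 10th percentile, the robust variance model, the accessory gland covariate and gene means. It was 3 with the floor at the 40th percentile, where Mal-A8 was not tested. It was 2 when a reading above the floor on all 12 arrays was asked for, which leaves out Mal-A6 and Mal-A8, 2 without the male arrays and 2 with log2 of hour, where Mal-A1 (limma adjusted p = 0.0537) and Mal-A8 (0.0724) missed the threshold. It was 0 with the actin covariate and 0 among the male arrays alone. With single hours left out it ranged from 3 to 4, and 0 members fell in each of these fits. Mal-A5 and Mal-B2, which fell in the main fit, are not among these members. Over all tested probe sets 1554 trends were called, 848 without the male arrays, 228 with the actin covariate, 0 among the male arrays alone, and 943 to 2002 with single hours left out. With single hours left out the log2 change was 1.23 to 1.58 for Amy-d, 1.38 to 1.97 for Mal-A6, 1.16 to 1.71 for Mal-A1 and 0.24 to 0.35 for Mal-A8. For curvature 4 probe sets were called, 8 after quantile normalization, 9 with the floor at the 40th percentile, 1 with no filter, 0 without the male arrays and 0 to 24 with single hours left out. For the middle against the early window 219 were called, 81 after quantile normalization, 0 with no filter, 361 without the male arrays and 0 to 490 with single hours left out. For the late against the middle window the range was 0 to 3. No member was called in these fits under any setting run (0 in each).

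Signs turned only for values that did not pass. Mal-A3 was -0.016 after quantile and -0.00194 after median normalization, -0.11 without the male arrays and -0.026 with the actin covariate. Mal-A4 was -0.042 after quantile normalization, -0.071 without the male arrays and -0.096 with the actin covariate. Without the male arrays Amyrel was -0.022 and Mal-B1 -0.0085. Among the male arrays alone Mal-A7 was 0.061 and Treh -0.11, and Treh was -0.050 with the actin covariate. With single hours left out Amyrel ranged from -0.021 to 0.079, Mal-A3 from -0.031 to 0.14, Mal-A4 from -0.020 to 0.16, Mal-A7 from -0.12 to 0.033, Mal-B1 from -0.00073 to 0.015 and Treh from -0.016 to 0.19. The difference from Amy-d was -0.47 for Mal-A6 with the floor at the 40th percentile and 0.0070 for Mal-A1 without the male arrays, and with single hours left out it ranged from -0.032 to 0.39 and from -0.25 to 0.13. The causes were not tested. No paired analysis was possible because the arrays form a single group. Dim readings limit Amyrel, Mal-A8 and the early hours of Mal-A6, which lie at or near the floor. They also limit Mal-A2 and Mal-A7, above the brightest control without a fly target on 8 and 10 of the 12 arrays.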

Other observations

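Several dim or level genes had their highest reading at hour 9, a pattern chosen after its values were seen. Mal-A3 read 188.6 there and at most 182.0 elsewhere, and Mal-A4 read 640.6, with 584.5 at hour 2 as its next highest. Amyrel read 72.6 at hour 9 and at most 59.6 elsewhere, and the glucosidase tobi 177.5 and at most 154.0 elsewhere. Steps up from hour 8 to hour 9 were common. That of Mal-A3 was reached by 26.6% of tested probe sets, that of Mal-A4 by 31.9% and that of Amyrel by 8.55%. The array of hour 9 also had the highest median intensity, 120.2, against 113.6 to 116.4 on the other arrays, the smallest share of fly probe sets at or under the floor, 18.7%, and male transcripts. The part of these in the readings was not tested.

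Mal-A7, also chosen after its values were seen, was dimmest in its middle hours. It averaged 129.0 ± 8.05 in hours 1 to 4, 110.6 ± 8.88 in hours 5 to 8 and 124.2 ± 1.91 in hours 9 to 12 (SD, n = 4 arrays). Neither step passed, with log2 differences of -0.22 ± 0.07 for the middle minus the early hours (limma adjusted p = 0.104) and 0.17 ± 0.07 for the late minus the middle hours (limma adjusted p = 0.647).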
